A study of Mus musculus with 12 samples.

Results

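The comparison described here is between 2 transformed mouse neural cell lines, OPCL61 and NSCL61, each measured on 2 of the 12 arrays of the series. OPCL61 was made from oligodendrocyte precursor cells and NSCL61 from neural stem cells. Every gene with a probe set of its own symbol was a member, and each was represented by the one of its probe sets whose mean over all 12 arrays was highest, which gave 18193 genes. Of these, 12787 had a mean above the median of all values, 5.18 on the log2 scale, in at least 1 of the 6 groups and were tested, and 5406 were not.

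OPCL61 cells carried HRasL61, an oncogenic form of the HRas GTPase, on the p53-/- background, and the line was derived from OPC. NSCL61 cells carried the same HRasL61 plasmid on the same p53-/- background, and the line was derived from NSC. The OPC parents were p53-/- oligodendrocyte precursor cells induced from stem cells with PDGFAA and bFGF in low serum and then purified by immunopanning. The NSC parents were p53-/- stem cells from the telencephalon of E14.5 embryos, kept in serum-free medium as spheres. All groups were of the BL6 strain, and all lack p53, the controls included. The series also holds p53-/- astrocytes (AST) and their HRasL61 line (ASTL61). The lines had been electroporated with the HRasL61-EGFP plasmid and a neomycin resistance plasmid, selected with neomycin and sorted for GFP. No parent taken through electroporation, selection and sorting was analysed here. The labels do not say whether a line is 1 clone or a pool, or whether its 2 arrays came from separate cultures. The p-values rest on the spread between the 2 arrays of a group, pooled over all 6 groups, parents and astrocytes included. That spread may be technical. For Igfbp2, described below, the SD was 3.18 in NSC, against 0.89 in OPCL61 and 0.21 in NSCL61. A gene can thus pass or fail between the lines through the spread of groups not compared. Each cell of origin is represented by 1 line name, so the cell of origin and the history of a line cannot be told apart.

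As background, oligodendrocyte precursors are the cycling glial progenitors that give rise to myelinating oligodendrocytes, and the transcription factors Olig1 and Olig2 mark and direct that lineage. Neural stem cells of the embryonic telencephalon give rise to neurons and glia and carry Sox2 and nestin. Active Ras signals through the MAPK cascade to growth, survival and secreted factors, and loss of p53 removes a brake on cells with damaged genomes. Both lesions are used to model glioma in mice.

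Each array held a log2 signal per probe set, and array medians lay between 5.16 and 5.21 over the 12 arrays. A signal under 5.18 may be background, so a difference that reaches below it may understate the true one. Replicate arrays of OPCL61 differed from each other with an SD of 0.416 across genes, against 0.193 for NSCL61. The 5′ control probe set for 18S ribosomal RNA, a sign of RNA or labelling quality, read 9.48 and 8.69 in OPCL61, against 8.06 and 11.67 in NSCL61, and its part in the results was not tested. Sox2, a stem and progenitor factor, read 11.63 and 11.58 in OPCL61, against 11.84 and 11.66 in NSCL61, and nestin (Nes), an intermediate filament of neural progenitors, read 9.49 and 9.07 in OPCL61, against 8.93 and 8.79 in NSCL61. Pdgfra, the growth factor receptor that defines the precursor stage, read 8.05 and 7.14 in OPCL61, against 7.04 and 7.01 in NSCL61, and Cspg4, the NG2 proteoglycan, read 6.37 and 6.31 in OPCL61, against 6.36 and 6.33 in NSCL61. Gpr17, a receptor of committed precursors, read 3.76 and 3.71 in OPCL61, against 3.69 and 3.53 in NSCL61, while the OPC parents read 9.43 and 10.52. Gfap, the astrocyte filament protein, read 6.04 and 5.62 in OPCL61, against 5.55 and 5.44 in NSCL61. None of these 6 genes passed the test between the lines with all arrays, and Nes alone passed without OPCL61 replicate 2 (0.63, adjusted p = 0.045), so neither Pdgfra nor Cspg4 set OPCL61 apart as a precursor line, and Gpr17 was at the level of background in both. The NSC parents also departed from their label. Sox2 read 11.99 and 11.89 in OPC, against 4.41 and 6.79 in NSC, and the stem cell surface protein Prom1 read 4.54 and 3.68 in NSC. Among 17 tested genes of pericytes and fibroblasts, 16 were lower in OPC than in NSC and 0 were higher, beside 24.3% and 27.1% of all tested genes, with a median log2 difference of -7.002. Of the same 17, 0 were higher and 2 lower in OPCL61 than in NSCL61, with a median of -0.12. Every result below that sets the line difference against the parental one rests on those NSC arrays.

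At an adjusted p under 0.05 in limma, 3406 of the 12787 genes differed between the lines (26.6%). Of these, 1692 were higher in OPCL61 than in NSCL61 (13.2%) and 1714 were lower (13.4%). At least a 2-fold difference was also reached by 609 of the higher genes (4.76%) and 706 of the lower ones (5.52%). The median log2 difference over all tested genes was 0.01. The number of calls depended on the NSCL61 arrays: 1790 genes passed without NSCL61 replicate 1 and 1864 without NSCL61 replicate 2. For 8514 genes (66.6%) the 2 arrays of one line lay wholly above or below those of the other, so that lack of overlap alone says little about a gene. In bulk RNA, fewer cells with a transcript and less of it per cell cannot be told apart.

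Rhox5, Fabp7, Ctsz and Lgals3 were given as markers of the lines when the comparison was chosen, with results of these data known. Rhox5 is a homeobox gene of the X chromosome known from the germ line, testis and placenta. It read 12.92 and 13.04 in OPCL61, against 6.81 and 6.73 in NSCL61. Both OPCL61 arrays were far above every other array of the series, and the difference between the lines was 6.21 ± 0.12 (adjusted p = 3.17e-09), or 74.0-fold. Its parents read 6.97 and 7.03 in OPC and 5.13 and 5.21 in NSC, so OPC and NSCL61 were at a like low level. Of the 30 genes in a list of Rhox and germline genes, 23 were on the array and only 3 passed the filter. Rhox5, itself a given marker, was the 1 of these 3 that differed, beside 26.6% of all tested genes. The count thus says nothing about germline genes at large.

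Fabp7, the brain fatty acid binding protein of radial glia, read 11.73 and 12.16 in OPCL61, against 6.16 and 5.68 in NSCL61. The difference was 6.03 ± 0.49 (adjusted p = 3.51e-05), and its parents read 13.76 and 13.58 in OPC and 5.96 and 4.11 in NSC. The level in OPCL61 was below that of OPC, and the level in NSCL61 was near the background. Ctsz, the lysosomal cysteine protease cathepsin Z, read 2.77 and 2.72 in OPCL61, against 11.80 and 11.63 in NSCL61. The OPCL61 signals lay well under the background limit. The difference of -8.97 ± 0.14 (adjusted p = 2.20e-09) was the largest fall among the tested genes on the probe sets used. Other probe sets of Ctsz differed by -6.19 and -5.31. With probe sets averaged its difference was -6.82, so the rank depended on the probe set. The parents already differed, with 2.86 and 2.60 in OPC and 11.40 and 11.60 in NSC. Lgals3, which encodes galectin-3, a lectin that binds beta-galactosides, read 5.04 and 4.78 in OPCL61, against 12.71 and 12.71 in NSCL61. That is a difference of -7.80 ± 0.44 (adjusted p = 3.05e-06), and the parents read 4.50 and 4.32 in OPC and 11.56 and 12.46 in NSC. For Ctsz and Lgals3 the parental differences were -8.77 and -7.60, close to those between the lines. The line difference exceeded the parental one by 4.38 ± 0.17 for Rhox5 (adjusted p = 2.68e-07) and fell short of it by 2.61 for Fabp7, where the difference of differences was -2.61 ± 0.69 (adjusted p = 0.0157). For Ctsz it was -0.19 ± 0.20 (adjusted p = 0.499) and for Lgals3 -0.20 ± 0.63 (adjusted p = 0.831), and neither passed.

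**Figure D1:**
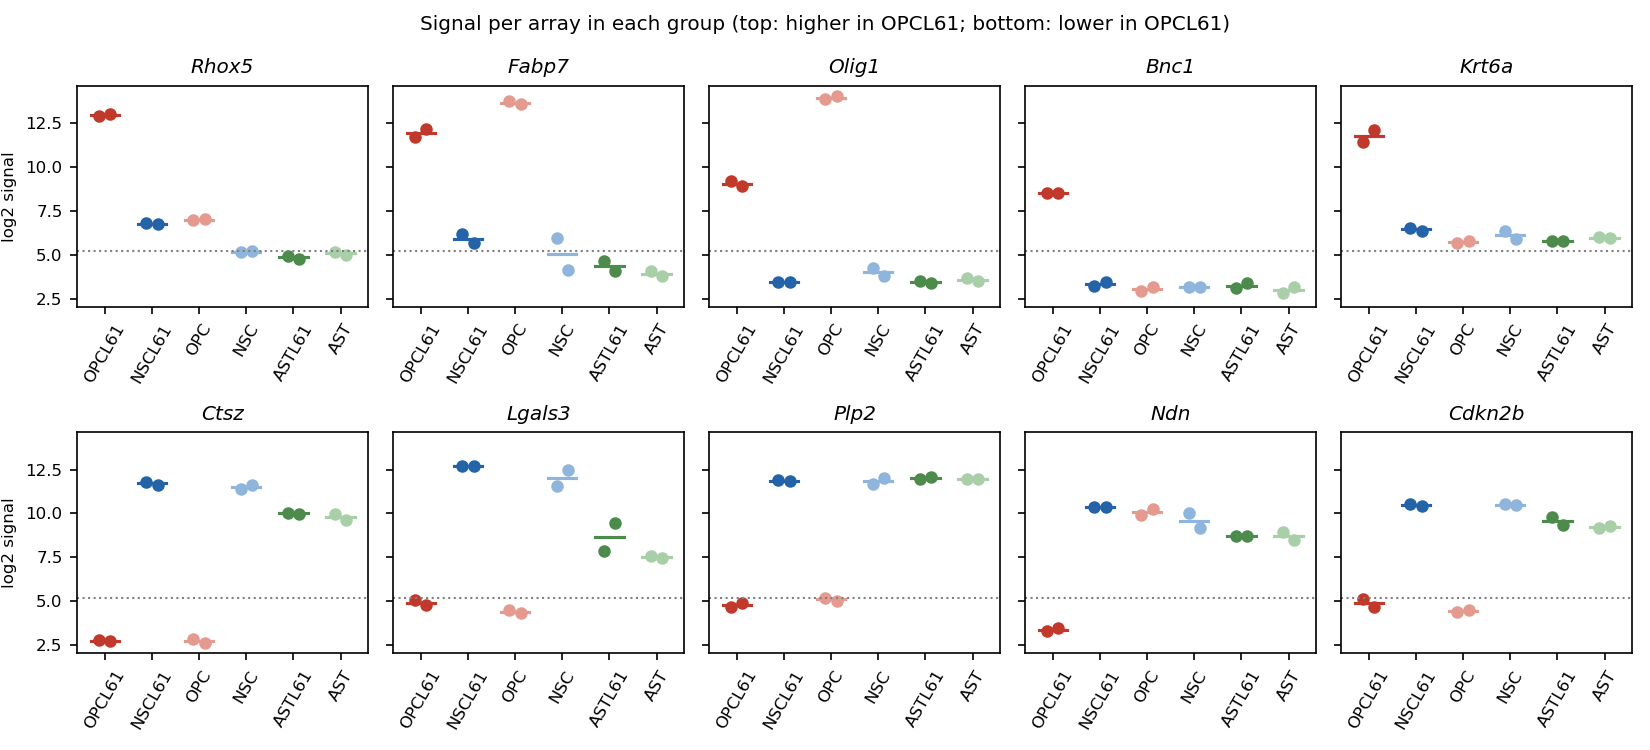
Log2 signal (y axis) on each array for 10 genes, with groups on the x axis, points for the 2 arrays of a group, bars for their mean and a dotted line at 5.18, the median of all values. The top row holds genes higher in OPCL61 than in NSCL61 and the bottom row genes lower in OPCL61; Ctsz, Lgals3, Plp2 and Cdkn2b are low in both OPCL61 and OPC, whereas Ndn is low in OPCL61 alone.

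The promoters of these 4 genes are shown because they mark the largest differences between the lines and differ in their content of CG pairs, the letters at which mammalian DNA is methylated. Methylation was not measured here. The sequences are from RefSeq, build GRCm38.p6, running from 250 bases before to 50 bases after the gene's start on its own strand, 5′ to 3′, with CG pairs in capitals.
Rhox5 (chrX:37754358-37754657, + strand): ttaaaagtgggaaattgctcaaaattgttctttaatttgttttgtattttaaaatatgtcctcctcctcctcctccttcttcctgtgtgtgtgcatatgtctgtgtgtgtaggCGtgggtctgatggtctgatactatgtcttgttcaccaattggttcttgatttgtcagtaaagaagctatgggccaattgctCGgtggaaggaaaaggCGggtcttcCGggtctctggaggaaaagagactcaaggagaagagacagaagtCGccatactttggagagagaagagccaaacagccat
Fabp7 (chr10:57784673-57784972, + strand): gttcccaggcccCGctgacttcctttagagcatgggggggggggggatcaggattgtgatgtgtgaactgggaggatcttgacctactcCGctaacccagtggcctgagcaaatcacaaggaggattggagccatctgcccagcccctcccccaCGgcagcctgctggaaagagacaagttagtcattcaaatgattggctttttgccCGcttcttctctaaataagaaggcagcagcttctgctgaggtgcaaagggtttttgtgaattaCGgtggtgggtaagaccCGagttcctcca
Ctsz (chr2:174438990-174439289, - strand): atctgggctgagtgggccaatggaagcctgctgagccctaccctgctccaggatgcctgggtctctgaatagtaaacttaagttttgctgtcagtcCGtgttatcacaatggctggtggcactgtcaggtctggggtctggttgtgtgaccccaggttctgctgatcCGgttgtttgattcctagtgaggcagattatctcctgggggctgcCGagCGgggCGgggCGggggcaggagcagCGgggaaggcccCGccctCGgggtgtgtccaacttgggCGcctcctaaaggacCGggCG
Lgals3 (chr14:47373610-47373909, + strand): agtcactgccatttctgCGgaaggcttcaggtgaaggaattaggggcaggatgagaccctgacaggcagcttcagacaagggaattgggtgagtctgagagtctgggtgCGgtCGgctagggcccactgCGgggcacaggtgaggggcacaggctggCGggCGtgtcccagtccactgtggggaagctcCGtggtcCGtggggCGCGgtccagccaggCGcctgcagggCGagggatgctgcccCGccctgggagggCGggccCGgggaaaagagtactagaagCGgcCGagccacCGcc
The Rhox5 window holds 5 CG pairs, the Fabp7 window 6, the Ctsz window 12 and the Lgals3 window 18. Over the 10293 tested genes with a promoter in the table, the median was 21, with quartiles at 12 and 29, so both genes higher in OPCL61 lay below the lower quartile. The AP-1 motif TGANTCA was in none of the 4 windows on either strand, and the Sox motif ATTGTN was in those of Rhox5, Fabp7 and Ctsz but not Lgals3. Of all tested genes' promoters, 4.9% held TGANTCA, 20.1% ATTGTN and 15% the E-box CAGCTG on either strand. A match is a description of letters and not a site of binding.

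Among the other large rises, Olig1, the lineage factor introduced above, read 9.18 and 8.89 in OPCL61, against 3.42 and 3.45 in NSCL61. Its difference of 5.59 ± 0.17 (adjusted p = 5.79e-08) was smaller than the parental 9.94, since OPC read 13.86 and 14.04. Igfbp2, a secreted binding protein for insulin-like growth factors, was also high in the parents, at 12.15 and 11.17 in OPC and 12.51 and 8.02 in NSC. It read 11.29 and 10.04 in OPCL61, against 5.19 and 4.88 in NSCL61, a difference of 5.63 ± 1.26 (adjusted p = 0.00996). This call was lost with single arrays left out, at adjusted p = 0.0532 without OPCL61 replicate 1, 0.0513 without NSCL61 replicate 1 and 0.0593 without NSCL61 replicate 2. Krt6a, a keratin of stressed and proliferating epithelia, read 11.42 and 12.12 in OPCL61, against 6.53 and 6.37 in NSCL61, a difference of 5.32 ± 0.22 (adjusted p = 3.48e-07). Bnc1, which encodes basonuclin, a zinc finger protein of basal keratinocytes and germ cells, read 8.53 and 8.52 in OPCL61, against 3.22 and 3.42 in NSCL61, a difference of 5.21 ± 0.15 (adjusted p = 3.28e-08). Neither Krt6a nor Bnc1 was high in a parent: Krt6a read 5.65 and 5.77 in OPC and 6.36 and 5.91 in NSC, and Bnc1 read 2.95 and 3.14 in OPC and 3.14 and 3.16 in NSC. OPCL61 was the only group of the 6 in which either gene stood out.

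Scara5, a scavenger receptor for ferritin, read 9.95 and 10.34 in OPCL61, against 5.41 and 5.20 in NSCL61, a difference of 4.84 ± 0.24 (adjusted p = 1.18e-06). Gas1, a membrane protein that modulates Hedgehog signalling, read 10.65 and 10.45 in OPCL61, against 6.85 and 6.42 in NSCL61, a difference of 3.91 ± 0.19 (adjusted p = 9.95e-07). Mgst2, a membrane glutathione transferase, read 10.74 and 11.09 in OPCL61, against 6.91 and 6.96 in NSCL61, a difference of 3.98 ± 0.27 (adjusted p = 1.01e-05). All 3 were tight within each line. Ednrb, the endothelin B receptor of glial and neural crest cells, read 7.78 and 6.73 in OPCL61, against 3.25 and 3.54 in NSCL61, and its difference of 3.86 ± 0.31 (adjusted p = 3.01e-05) was below the parental 8.68. Itga8, the integrin alpha-8 chain, read 9.50 and 10.05 in OPCL61, against 5.75 and 6.16 in NSCL61, a difference of 3.82 ± 0.35 (adjusted p = 7.57e-05). Ptn, the heparin-binding growth factor pleiotrophin, read 9.84 and 9.44 in OPCL61, against 5.21 and 6.09 in NSCL61, a difference of 3.99 ± 0.38 (adjusted p = 9.72e-05). Not all of these differences were gains of OPCL61 over its parent. Gas1 means were 10.81 in OPC, 11.59 in NSC, 10.78 in AST and 11.31 in ASTL61, so NSCL61 alone was low. Ptn means were 12.41 in OPC and 11.38 in NSC, both above OPCL61. The parental differences of -3.41 for Itga8 and -2.09 for Scara5 had the opposite sign. A weaker probe set of Ptn differed by 0.09, one of Gas1 by 0.23 and one of Ednrb by 1.16, so the probe sets of these genes disagreed in size. With probe sets averaged, the differences were 2.40 for Ptn, 2.49 for Gas1, 1.97 for Ednrb and 2.62 for Scara5.

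In a further group of rises the OPCL61 arrays lay far apart. Syt4, a synaptotagmin of vesicle release, read 9.65 and 7.22 in OPCL61, against 4.08 and 3.98 in NSCL61, a difference of 4.41 ± 0.61 (adjusted p = 8.14e-04). Pdlim4, an actin-associated PDZ and LIM protein, read 9.97 and 7.44 in OPCL61, against 4.32 and 4.45 in NSCL61, a difference of 4.32 ± 0.79 (adjusted p = 0.00363). Cavin2, a protein of caveolae, read 9.66 and 5.70 in OPCL61, against 3.76 and 3.86 in NSCL61, a difference of 3.87 ± 1.004 (adjusted p = 0.0196). For Cavin2 the call was lost at adjusted p = 0.0937 without NSCL61 replicate 1 and 0.0845 without NSCL61 replicate 2, and the difference was 1.89 without OPCL61 replicate 1 and 5.85 without OPCL61 replicate 2. It was also lost in a fit of the compared arrays alone (adjusted p = 0.0959) or of the HRasL61 lines alone (adjusted p = 0.0679). In each of the 3 genes OPCL61 replicate 1 was above replicate 2, and both were above NSCL61.

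Among the large falls, Ereg, the epidermal growth factor family ligand epiregulin, read 3.11 and 3.72 in OPCL61, against 11.16 and 11.07 in NSCL61. The difference was -7.70 ± 0.57 (adjusted p = 1.95e-05), and the NSC parents were intermediate at 8.27 and 7.41. Plp2, a small membrane protein encoded on the X chromosome, read 4.64 and 4.87 in OPCL61, against 11.89 and 11.86 in NSCL61, a difference of -7.12 ± 0.14 (adjusted p = 3.87e-09). Acot9, a mitochondrial acyl-CoA thioesterase, read 4.32 and 4.31 in OPCL61, against 11.29 and 11.25 in NSCL61, a difference of -6.95 ± 0.12 (adjusted p = 2.31e-09). Lactb2, a metallo-beta-lactamase domain protein, read 3.08 and 3.08 in OPCL61, against 9.52 and 9.56 in NSCL61, a difference of -6.47 ± 0.19 (adjusted p = 3.28e-08), and a second probe set fell by 2.81. All 4 genes were under the background limit on both OPCL61 arrays. Pdpn, the mucin-type membrane protein podoplanin, read 5.40 and 5.31 in OPCL61, against 11.50 and 11.27 in NSCL61, a difference of -6.03 ± 0.38 (adjusted p = 5.76e-06). Plscr1, a phospholipid scramblase induced by interferon, read 3.65 and 3.29 in OPCL61, against 9.37 and 9.37 in NSCL61, a difference of -5.90 ± 0.15 (adjusted p = 1.46e-08). Plin2, the coat protein of lipid droplets, read 6.71 and 6.60 in OPCL61, against 12.60 and 12.46 in NSCL61, a difference of -5.88 ± 0.12 (adjusted p = 4.75e-09). Lxn, the carboxypeptidase inhibitor latexin, read 6.58 and 5.30 in OPCL61, against 11.93 and 11.84 in NSCL61, a difference of -5.94 ± 0.42 (adjusted p = 1.38e-05).

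Ndn and Mcts1 were low in OPCL61 but high in every other group. Ndn, the imprinted growth suppressor necdin, read 3.27 and 3.49 in OPCL61, against 10.38 and 10.39 in NSCL61, and the parents read 9.89 and 10.23 in OPC and 10.01 and 9.16 in NSC. Its difference between the lines was -7.01 ± 0.26 (adjusted p = 1.52e-07), while that between the parents was 0.48 ± 0.26 (adjusted p = 0.146). Mcts1, an X-linked gene for a translation reinitiation factor, read 4.89 and 4.58 in OPCL61, against 10.94 and 10.86 in NSCL61, and the parents read 9.37 and 10.05 in OPC and 10.63 and 10.70 in NSC. The line difference was -6.16 ± 0.21 (adjusted p = 1.02e-07). Over AST and ASTL61 the arrays lay between 8.51 and 8.92 for Ndn and between 10.40 and 10.72 for Mcts1. Gstp1, a cytosolic glutathione transferase, had the same kind of pattern, with 6.28 and 6.66 in OPCL61, against 11.58 and 11.39 in NSCL61, a difference of -5.01 ± 0.18 (adjusted p = 1.28e-07), and parents at 10.71 and 11.15 in OPC and 12.10 and 11.90 in NSC. With probe sets averaged, the difference was -3.96 for Ndn.

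Genes on in one line and off in the other were defined as having both arrays of 1 line above 7.56, the 75th percentile of all values, and both arrays of the other under the median. There were 48 genes on in NSCL61 and off in OPCL61 (0.375%), against 4 on in OPCL61 and off in NSCL61 (0.0313%). The 4 were Olig1, Bnc1, Pou3f4 and Rtn1. Pou3f4, a POU-domain neural transcription factor of the X chromosome, read 7.80 and 8.95 in OPCL61, against 4.59 and 4.83 in NSCL61, and Rtn1, a reticulon of the neuronal endoplasmic reticulum, read 8.20 and 7.74 in OPCL61, against 4.92 and 4.99 in NSCL61. Of these, 3 genes, Olig1, Pou3f4 and Rtn1, were also above the median in OPC. Of the 48, 38 were under the median in OPC and 5 in NSC, and 33 were above it in NSC and under it in OPC. A further 10 were above it in both parents and 5 under it in both. The 48 included 4 X-linked genes among 47 with a known chromosome.

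The genes off in OPCL61 included an inhibitor of the cell cycle and a caspase. Cdkn2b, the cyclin-dependent kinase inhibitor p15, read 5.12 and 4.65 in OPCL61, against 10.55 and 10.45 in NSCL61, a difference of -5.61 ± 0.18 (adjusted p = 7.53e-08). Its neighbour Cdkn2a, which encodes p16 and p19Arf, read 9.87 and 9.41 in OPCL61, against 9.23 and 9.91 in NSCL61 and did not pass, with a difference of 0.07 ± 0.24 (adjusted p = 0.861). Casp8, the initiator caspase of death receptors, read 4.30 and 4.25 in OPCL61, against 9.22 and 9.31 in NSCL61, a difference of -4.99 ± 0.14 (adjusted p = 3.28e-08). OPC read 4.46 ± 0.09 (SD, n = 2) for Cdkn2b and 4.53 ± 0.19 for Casp8, so both genes were as low in the parent. Grb10, an imprinted adaptor that restrains insulin receptor signalling, read 4.11 and 3.98 in OPCL61, against 9.96 and 10.05 in NSCL61, a difference of -5.96 ± 0.24 (adjusted p = 3.38e-07), while its other probe sets fell by 2.72 and 1.72, and the average over probe sets gave -3.47 for Grb10. Cav1, the caveolar coat protein caveolin-1, read 4.99 and 5.14 in OPCL61, against 10.53 and 10.90 in NSCL61, a difference of -5.65 ± 0.22 (adjusted p = 2.76e-07). Of this set, Cdkn2b, Casp8, Grb10 and Cav1 were all above the median in NSC.

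Genes on in NSCL61 but in neither parent formed a small group of 5 with both parents under the median. Mpzl2, an epithelial adhesion molecule, read 3.86 and 3.97 in OPCL61, against 8.77 and 8.48 in NSCL61, with parents at 3.93 and 3.87 in OPC and 3.87 and 3.98 in NSC. Lhx1, a LIM homeobox factor of early embryos and some neurons, read 3.94 and 3.89 in OPCL61, against 8.02 and 8.30 in NSCL61, with parents at 4.80 and 4.61 in OPC and 4.17 and 3.96 in NSC. Fgf5, a fibroblast growth factor, read 3.52 and 4.98 in OPCL61, against 8.14 and 7.80 in NSCL61, with parents at 3.36 and 3.44 in OPC and 3.38 and 4.90 in NSC. The line differences were -4.71 ± 0.13 (adjusted p = 3.15e-08) for Mpzl2, -4.24 ± 0.27 (adjusted p = 6.06e-06) for Lhx1 and -3.72 ± 0.51 (adjusted p = 7.60e-04) for Fgf5. Lhx1 was also above the median in AST, at 7.41 and 8.02. A second Fgf5 probe set fell by 1.72 in OPCL61, and 2 further probe sets of Mpzl2 fell by 7.29 and 7.21. Of the promoters of the 48 genes, 39 were in the RefSeq table, and they held a median of 15 CG pairs against 21 for all tested genes. TGANTCA was in 5 of the 39 (12.8%), against 4.9% of all, ATTGTN in 8 (20.5%), against 20.1%, and CAGCTG in 7 (17.9%), against 15%. Of the 4 genes on in OPCL61 and off in NSCL61, 3 had a promoter there, also with a median of 15 CG pairs. Among those 3, TGANTCA was in 1, ATTGTN in 1 and CAGCTG in 0, so these letters did not set the 48 apart.

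The line difference was not spread evenly over the genome. On chromosome 14 the median of 420 tested genes was 0.745, with 253 genes higher in OPCL61 (60.2%) and 15 lower. On chromosome 4 the median of 775 genes was -0.429, with 345 lower (44.5%) and 21 higher. On chromosome 16 the median of 406 genes was -0.344, with 151 lower (37.2%) and 17 higher. Over the other 16 autosomes and the X chromosome, the medians lay between -0.13 and 0.15. The 3 chromosomes held 12.5% of the tested genes, 17.2% of those higher and 29.8% of those lower in OPCL61. Leaving out each array of the lines in turn gave medians from 0.708 to 0.791 for chromosome 14, from -0.458 to -0.382 for chromosome 4 and from -0.433 to -0.277 for chromosome 16. The size depended on the filter: over all genes, with dim ones kept, the medians were 0.285 for chromosome 14, -0.228 for chromosome 4 and -0.201 for chromosome 16.

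The shifts ran along the whole of each chromosome. In blocks of 60 neighbouring tested genes, the 7 blocks of chromosome 14 had medians from 0.486 to 0.888, the 13 blocks of chromosome 4 from -0.671 to -0.263 and the 7 blocks of chromosome 16 from -0.408 to -0.259. The 190 blocks of the other chromosomes lay between -0.201 and 0.333. The parents did not show it, with medians of OPC minus NSC of 0.133 on chromosome 14, -0.0132 on chromosome 4 and -0.0725 on chromosome 16. Against its own parent, OPCL61 had medians of 0.118 on chromosome 14, -0.276 on chromosome 4 and -0.183 on chromosome 16. NSCL61 minus NSC had medians of -0.402, 0.108 and 0.0259 on the same chromosomes. Against AST, the medians on chromosomes 14, 4 and 16 were 0.461, -0.433 and -0.428 for OPCL61. For NSCL61 against AST they were -0.184, -0.0452 and -0.0807. Which line departed further on chromosome 14 thus depended on the reference. These comparisons share the line arrays with the difference between the lines. ASTL61 minus AST had medians of 0.0319, -0.00028 and -0.0025. Chromosome 15 had a median of -0.245 for OPCL61 minus OPC, below that of chromosome 16, while its median between the lines was 0.0118. Shifts against the parent of that size were thus not limited to the 3 chromosomes. Whether the lines differ in chromosome number was not tested. With the genes of the 3 chromosomes left out of the fit, 2419 of 11186 genes passed, 1289 higher and 1130 lower.

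**Figure D2:**
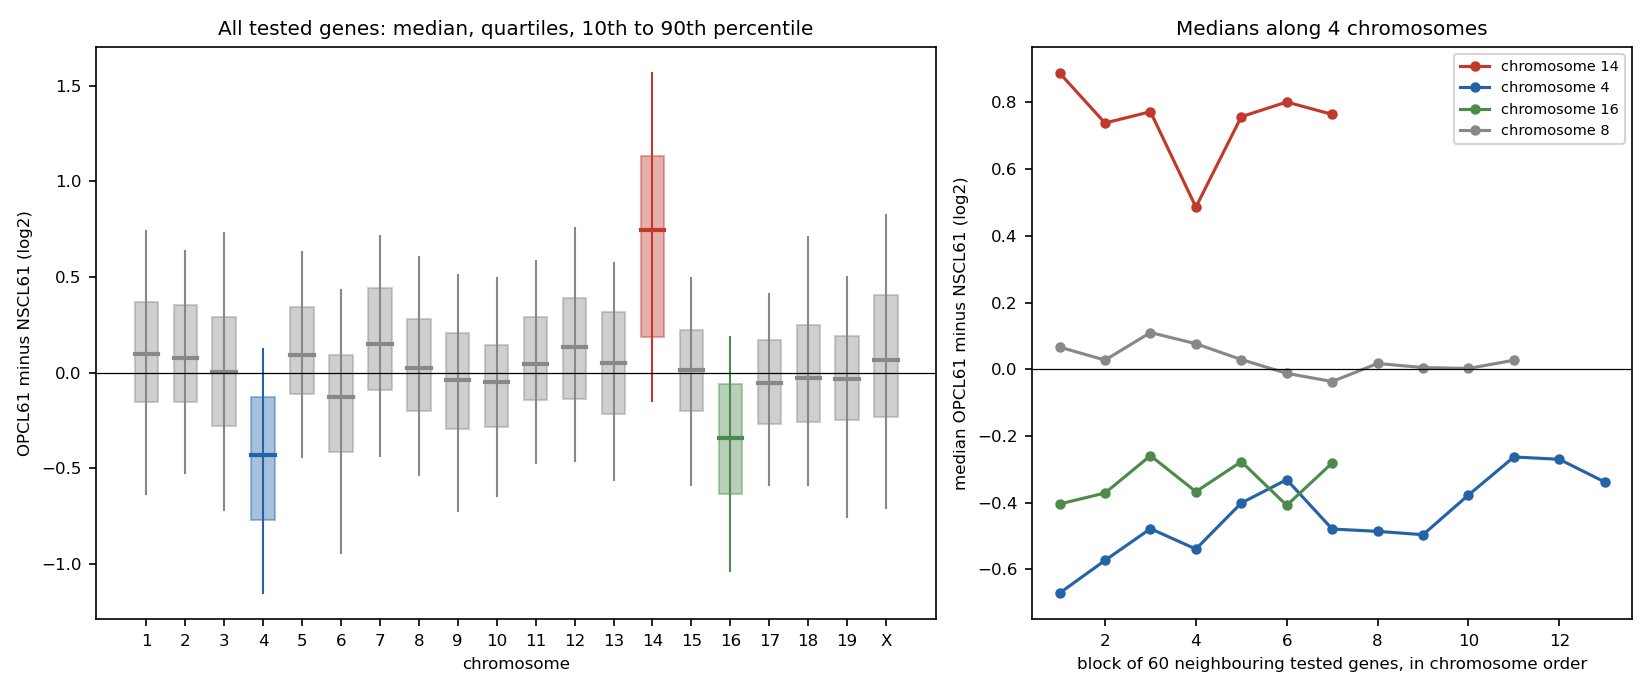
Left, the log2 difference OPCL61 minus NSCL61 (y axis) of all tested genes by chromosome (x axis), with the median, quartiles and outer percentiles drawn as lines. Right, the median of that difference in blocks of 60 neighbouring tested genes along chromosomes 14, 4, 16 and 8; chromosome 14 stays at or above 0.486 and chromosomes 4 and 16 stay at or below -0.259 in every block, while chromosome 8 runs near 0.

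The lines were more alike than their parents. The log2 differences had an SD over genes of 0.793 between the lines, against 1.42 between the parents, and 1408 genes were at least 2-fold apart between the lines, against 3169 between the parents. Between the parents 6572 genes passed (51.4%). The 2 comparisons share no arrays, and across the 12787 genes their differences correlated with a Pearson r of 0.335 and a Spearman rho of 0.305, where genes are not independent replicates. Of the 1692 genes higher in OPCL61, 834 (49.3%) were also higher in OPC than in NSC, 250 (14.8%) were lower and 608 (35.9%) did not pass. Of the 1714 lower genes, 767 (44.7%) were lower in OPC, 255 (14.9%) were higher and 692 (40.4%) did not pass. Among the 3464 genes higher in OPC than in NSC, 24.1% were higher in OPCL61, and among the 3108 lower ones 24.7% were lower in OPCL61. Of all tested genes, 27.1% were higher and 24.3% lower in OPC than in NSC. Between the lines, 13.2% of all tested genes were higher and 13.4% lower in OPCL61.

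**Figure D3:**
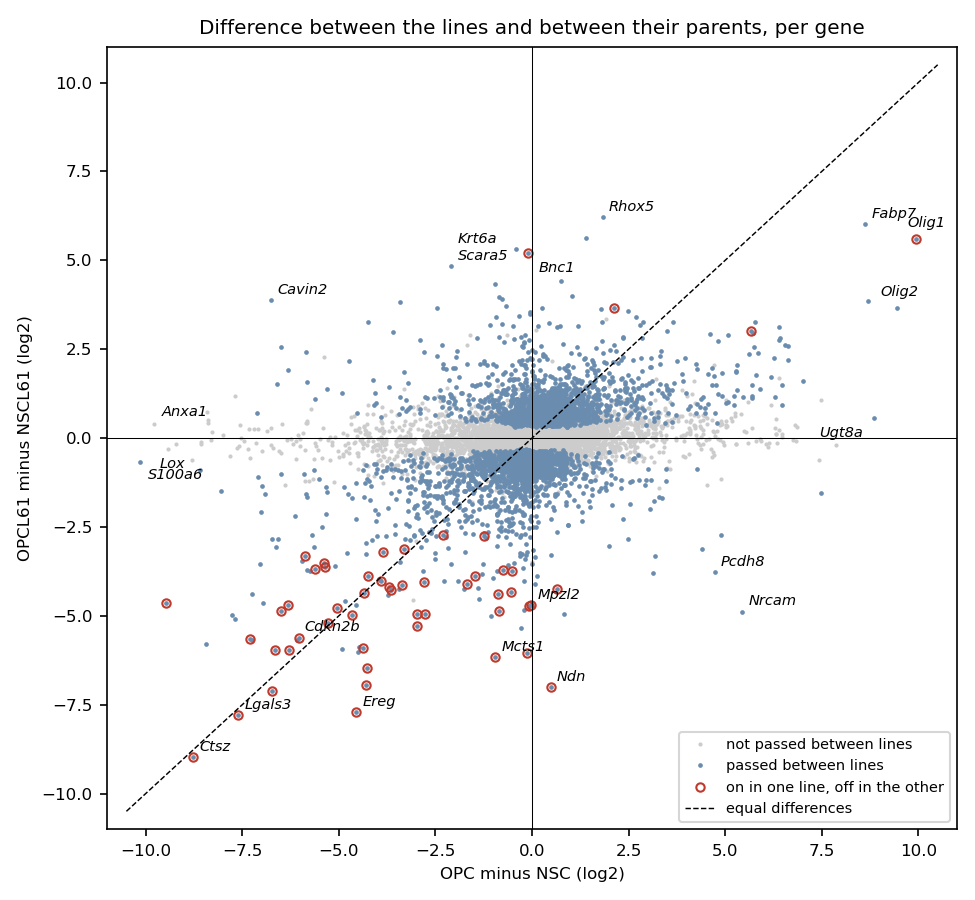
For each tested gene, the log2 difference OPC minus NSC (x axis) and OPCL61 minus NSCL61 (y axis), with genes past the adjusted threshold between the lines in blue and genes on in one line and off in the other circled. Ctsz, Lgals3 and Cdkn2b lie near the dashed line of equal differences, Bnc1, Krt6a and Ndn lie near 0 between the parents, and Anxa1, S100a6 and Lox, which lie at -9.80, -10.15 and -9.42 between the parents, lie at 0.39, -0.69 and -0.31 between the lines.

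The difference of differences, that is the line difference minus the parental one, passed for 4828 genes (37.8%), 2300 above 0 (18%) and 2528 below it (19.8%). Most of the largest values came from the parents, not from the lines. Anxa1, a phospholipid-binding annexin, read 12.32 and 12.71 in OPCL61, against 12.07 and 12.19 in NSCL61, while the parents read 3.89 and 3.68 in OPC and 13.57 and 13.58 in NSC. S100a6, the calcium-binding protein calcyclin, read 12.84 and 13.23 in OPCL61, against 13.73 and 13.72 in NSCL61, while the parents read 3.38 and 3.49 in OPC and 13.59 and 13.59 in NSC. In both genes OPCL61 and NSCL61 were high although OPC was at background. Lox, the collagen cross-linking enzyme lysyl oxidase, read 4.20 and 3.63 in OPCL61, against 4.22 and 4.23 in NSCL61, while the parents read 4.12 and 3.57 in OPC and 13.19 and 13.34 in NSC. Col5a2, a fibrillar collagen chain, read 4.29 and 4.50 in OPCL61, against 4.39 and 4.72 in NSCL61, while the parents read 4.15 and 4.41 in OPC and 13.37 and 13.63 in NSC. Postn, the matrix protein periostin, and Efemp1, the matrix protein fibulin-3, were near background in both lines as well, with means of 5.73 and 3.50 in OPCL61, against 4.99 and 2.99 in NSCL61. These 4 matrix genes were high in NSC alone of the 4 groups compared, but not in NSC alone of the series. Means in AST and ASTL61 were 12.08 and 12.62 for Lox and 10.94 and 10.98 for Col5a2. They were 8.24 and 8.96 for Postn and 5.05 and 7.42 for Efemp1.

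Some of the genes with large negative values had a line difference opposite in sign to the parental one. Nrcam, a neuronal cell adhesion molecule, read 6.86 and 5.52 in OPCL61, against 11.21 and 10.92 in NSCL61, while the parents read 9.23 and 9.04 in OPC and 4.002 and 3.39 in NSC. The line difference was -4.88 ± 0.48 (adjusted p = 1.19e-04), and the parental one was 5.44 ± 0.48 (adjusted p = 1.24e-05). Pcdh8, a protocadherin, read 6.72 and 6.99 in OPCL61, against 10.75 and 10.51 in NSCL61, with a line difference of -3.78 ± 0.28 (adjusted p = 2.04e-05) and a parental one of 4.73 ± 0.28 (adjusted p = 9.90e-07). Lrrn1, a leucine-rich repeat membrane protein, and Gpm6a, a neuronal membrane glycoprotein, were high in OPC alone, at 10.46 ± 0.43 and 11.58 ± 0.12 (SD, n = 2), and under the median in both lines. Aard read 5.01 and 5.22 in OPCL61, against 7.82 and 7.84 in NSCL61, and Car8, a carbonic anhydrase-related protein without the enzyme activity, read 5.95 and 3.98 in OPCL61, against 8.02 and 8.16 in NSCL61; OPC means were 8.98 for Aard and 8.28 for Car8. Ugt8a, which makes the myelin lipid galactosylceramide, read 5.99 and 7.28 in OPCL61, against 6.82 and 6.84 in NSCL61, and Tox3, a high mobility group protein, read 7.28 and 8.09 in OPCL61, against 8.50 and 8.07 in NSCL61. Neither passed between the lines, although OPC exceeded NSC by 7.86 for Ugt8a and 7.42 for Tox3. With probe sets averaged, the line differences were -2.06 for Nrcam, -1.21 for Car8 and -0.42 for Lrrn1. Without OPCL61 replicate 2 Tox3 passed, at -1.01 (adjusted p = 0.0166). Rnase4, a secreted ribonuclease, read 6.47 and 7.26 in OPCL61, against 4.45 and 4.13 in NSCL61, a line difference of 2.57 ± 0.38 (adjusted p = 0.0012) beside a parental one of -6.49 ± 0.38 (adjusted p = 8.69e-07).

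Oligodendrocyte precursor genes rose in part: 7 of 18 were higher in OPCL61 and 1 was lower, beside 13.2% and 13.4% of all tested genes, with a median difference of 0.35, against 0.01 for all genes. These counts were the same with any line array left out. Olig2 read 6.82 and 5.90 in OPCL61, against 2.75 and 2.67 in NSCL61, a difference of 3.65 ± 0.25 (adjusted p = 9.82e-06). Ptprz1, a receptor phosphatase for pleiotrophin, read 8.83 and 7.72 in OPCL61, against 5.30 and 5.41 in NSCL61, a difference of 2.92 ± 0.31 (adjusted p = 1.90e-04), and Bcan, the brain proteoglycan brevican, read 7.35 and 6.88 in OPCL61, against 5.29 and 5.48 in NSCL61, a difference of 1.73 ± 0.22 (adjusted p = 5.74e-04). Nkx2-2, a homeobox factor of the lineage, read 6.83 and 5.38 in OPCL61, against 3.53 and 3.25 in NSCL61, a difference of 2.72 ± 0.36 (adjusted p = 6.38e-04). The levels were nonetheless far below those of the parent, since OPC read 12.27 for Olig2, 11.82 for Bcan and 12.34 for Ptprz1. Between the parents 15 of the 18 genes were higher in OPC and 0 lower, beside 27.1% and 24.3% of all tested genes, with a median of 5.79. For the difference of differences 14 of the 18 passed, beside 37.8% of all. Olig1 and Olig2 lie on chromosome 16, where 151 of 406 tested genes were lower in OPCL61 and 17 higher. Of 16 genes of maturing oligodendrocytes and myelin, 3 were higher and 3 lower. Aspa, which breaks down N-acetylaspartate, read 9.17 and 9.49 in OPCL61, against 7.19 and 7.34 in NSCL61, a difference of 2.07 ± 0.27 (adjusted p = 6.11e-04), and Tspan2, a tetraspanin, differed by -0.84 ± 0.15 (adjusted p = 0.0033). With probe sets averaged, the difference was -1.39 for Tspan2. Of the 3 higher genes, 1 was left without any 1 of OPCL61 replicate 1, NSCL61 replicate 1 or NSCL61 replicate 2.

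Astrocyte genes were higher for 5 of 17 and lower for 0, beside 13.2% and 13.4% of all tested genes, with a median of 0.62. Mlc1, a membrane protein of astrocyte endfeet, read 6.21 and 6.39 in OPCL61, against 3.70 and 3.38 in NSCL61, a difference of 2.76 ± 0.13 (adjusted p = 1.05e-06), and Glul, glutamine synthetase, differed by 1.26 ± 0.22 (adjusted p = 0.00255). The count of 5 was not stable: it fell without NSCL61 replicate 1, NSCL61 replicate 2 or OPCL61 replicate 1 and rose without OPCL61 replicate 2. Neuronal genes were higher for 7 of 19 and lower for 1, and the count of 7 moved in the same directions with the same arrays left out. Stmn3, a microtubule regulator of neurons, read 8.78 and 8.40 in OPCL61, against 5.32 and 5.33 in NSCL61, a difference of 3.26 ± 0.17 (adjusted p = 1.80e-06). Nefl, the neurofilament light chain, read 12.34 and 12.72 in OPCL61, against 10.72 and 10.05 in NSCL61, a difference of 2.15 ± 0.23 (adjusted p = 2.07e-04), and lies on chromosome 14. Dlx1, a homeobox factor of interneurons, read 6.44 and 6.28 in OPCL61, against 4.20 and 4.17 in NSCL61, a difference of 2.18 ± 0.28 (adjusted p = 5.05e-04). Nrcam, given above, was the 1 neuronal gene that fell. Radial glia and stem cell genes gave 2 higher and 4 lower of 19, the higher ones being Fabp7 and Ptn. Fut4, which makes the SSEA-1 stem cell epitope, read 3.73 and 3.40 in OPCL61, against 7.30 and 7.29 in NSCL61, a difference of -3.73 ± 0.17 (adjusted p = 9.46e-07), and Emx2, a cortical homeobox factor, fell by 1.48 (adjusted p = 0.00495). Prom1, the surface protein CD133, read 8.57 and 8.22 in OPCL61, against 9.08 and 8.89 in NSCL61 and did not pass. Without NSCL61 replicate 1 the 4 lower stem cell genes became 2, and without OPCL61 replicate 2 the 2 higher ones became 4.

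Of 21 microglia and macrophage genes 8 passed the filter, and 2 of them were lower, beside 13.4% of all tested genes. Cd53, a leukocyte tetraspanin, read 4.12 and 4.14 in OPCL61, against 5.64 and 5.70 in NSCL61. On the arrays 15 of the 21 list members had means under the median in OPCL61 and 13 in NSCL61. Of 12 endothelial genes 4 were tested and 1 was lower, and 9 of the list had means under the median in each line. Of the 21 pericyte and fibroblast genes on the array, 12 had means under the median in each line. Of the 13 Schwann cell and neural crest genes on the array, 5 did in OPCL61 and 4 in NSCL61. The pericyte and fibroblast list gave 2 lower of 17, and Fbln1, the matrix protein fibulin-1, read 8.50 and 8.57 in OPCL61, against 9.68 and 9.50 in NSCL61, a difference of -1.06 ± 0.21 (adjusted p = 0.00554). Of 12 Schwann cell and neural crest genes 2 were higher and 2 lower. Pmp22, a peripheral myelin protein, differed by 1.41 ± 0.23 (adjusted p = 0.00229). With single line arrays left out, the lower microglial genes numbered 1 without NSCL61 replicate 1, NSCL61 replicate 2 or OPCL61 replicate 2, and the endothelial count became 0 without the same arrays. The 2 lower pericyte genes became 1 without NSCL61 replicate 2 or OPCL61 replicate 2, and 1 was higher without OPCL61 replicate 2. For Schwann cell genes 1 was higher without NSCL61 replicate 2, OPCL61 replicate 1 or OPCL61 replicate 2, and 1 lower without NSCL61 replicate 1, NSCL61 replicate 2 or OPCL61 replicate 1.

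Cathepsins and lysosomal enzymes were lower in OPCL61 for 15 of 33 and higher for 1, beside 13.4% and 13.2% of all tested genes. Their median was -0.42. The 15 became 6 without NSCL61 replicate 1, 10 without NSCL61 replicate 2 and 7 without OPCL61 replicate 2, where 3 were higher. Beside Ctsz, Ctsa, the protective protein cathepsin A, differed by -1.68 ± 0.23 (adjusted p = 7.96e-04). Ctsc, the dipeptidyl peptidase cathepsin C, read 4.24 and 4.96 in OPCL61, against 8.53 and 8.45 in NSCL61, a difference of -3.89 ± 0.78 (adjusted p = 0.006). With probe sets averaged, the differences were -0.95 for Ctsa and -1.26 for Ctsc. Mcoln1, a lysosomal calcium channel, fell by 0.81 (adjusted p = 0.00194). The 1 gene that rose was Scarb2, the receptor that carries glucocerebrosidase to lysosomes, with 9.36 and 9.03 in OPCL61, against 7.65 and 7.53 in NSCL61, a difference of 1.61 ± 0.18 (adjusted p = 2.71e-04). Only 1 of the 33 genes lies on chromosome 4, 14 or 16. Between the parents 19 were lower in OPC and 4 higher, beside 24.3% and 27.1% of all tested genes, with a median of -0.84. Of 9 galectin genes 2 were lower and 1 higher; Lgals7, an epithelial galectin, read 7.61 and 6.36 in OPCL61, against 8.45 and 8.46 in NSCL61, a difference of -1.46 ± 0.31 (adjusted p = 0.00794). Without OPCL61 replicate 2 the Lgals7 difference was -0.84, and in a fit of the compared arrays alone its call was lost (adjusted p = 0.0681). The 1 higher galectin became 0 without NSCL61 replicate 2 or OPCL61 replicate 1.

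S100 and annexin genes encode calcium-binding proteins of the membrane and cytoskeleton. They were lower in OPCL61 for 10 of 19 and higher for 1, beside 13.4% and 13.2% of all tested genes. Their median was -0.69. Anxa4 read 3.72 and 3.34 in OPCL61, against 9.52 and 9.47 in NSCL61, a difference of -5.96 ± 0.15 (adjusted p = 1.46e-08). Anxa3 read 5.32 and 4.18 in OPCL61, against 10.31 and 10.77 in NSCL61, a difference of -5.79 ± 0.36 (adjusted p = 5.21e-06). S100a13, which takes part in the release of fibroblast growth factor 1, read 5.12 and 5.45 in OPCL61, against 7.96 and 8.03 in NSCL61, a difference of -2.71 ± 0.21 (adjusted p = 2.74e-05). The 1 gene that rose was S100a8, a subunit of the inflammatory protein calprotectin, with 7.15 and 6.96 in OPCL61, against 5.38 and 4.62 in NSCL61, a difference of 2.06 ± 0.25 (adjusted p = 3.65e-04). Between 9 and 10 genes of the list were lower with any line array left out. Anxa5, annexin A5, fell less, with 12.09 and 12.03 in OPCL61, against 13.44 and 13.43 in NSCL61, a difference of -1.38 ± 0.24 (adjusted p = 0.00295), and S100a6 fell by 0.69 (adjusted p = 0.00534). Between the parents 14 of the 19 were lower in OPC, beside 24.3% of all tested genes, with a median of -3.55.

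Cholesterol synthesis genes, the sterol enzymes and their regulator, were higher in OPCL61 for 9 of 17 and lower for 0. Of all tested genes, 13.2% were higher and 13.4% lower. The median of the list was 0.95. Hmgcs1, which makes the HMG-CoA that feeds the pathway, read 11.75 and 12.13 in OPCL61, against 10.42 and 10.43 in NSCL61, a difference of 1.51 ± 0.26 (adjusted p = 0.00243). Cyp51, a sterol demethylase, read 11.13 and 11.61 in OPCL61, against 9.88 and 9.80 in NSCL61, a difference of 1.53 ± 0.26 (adjusted p = 0.00244). Fdft1, squalene synthase, read 11.08 and 12.02 in OPCL61, against 9.79 and 9.75 in NSCL61, a difference of 1.78 ± 0.32 (adjusted p = 0.00336), and lies on chromosome 14, as 1 of the 17. With probe sets averaged, the difference was 1.03 for Fdft1. In all 3 genes both OPCL61 arrays were above both NSCL61 arrays. The count of 9 became 5 without NSCL61 replicate 1, 3 without NSCL61 replicate 2 and 4 without OPCL61 replicate 2. Between the parents 3 were higher in OPC and 0 lower, beside 27.1% and 24.3% of all tested genes, with a median of 0.28. Glycolysis and hypoxia genes gave 0 higher and 4 lower of 22, among them Slc2a1, the glucose transporter GLUT1, with 10.34 and 9.85 in OPCL61, against 11.06 and 11.17 in NSCL61, a difference of -1.02 ± 0.18 (adjusted p = 0.00271). Slc2a1 lies on chromosome 4. At an unadjusted p under 0.05 in limma, 2 genes of the glycolysis and hypoxia list were higher and 7 lower. The counts of this list moved with the array left out, to 8 lower without OPCL61 replicate 1 and 6 higher and 2 lower without OPCL61 replicate 2, 1 lower without NSCL61 replicate 1 and 2 lower without NSCL61 replicate 2.

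NRF2 targets and glutathione enzymes were lower for 11 of 37 and higher for 4, beside 13.4% and 13.2% of all tested genes. All 7 members on chromosomes 4, 14 and 16 passed, 6 of them lower and 1 higher. Of all tested genes on those chromosomes, 31.9% were lower and 18.2% higher. Elsewhere the median of the list was -0.04. Cbr1, a carbonyl reductase on chromosome 16, read 6.88 and 5.34 in OPCL61, against 8.997 and 8.74 in NSCL61, a difference of -2.76 ± 0.38 (adjusted p = 8.37e-04). Txn1, thioredoxin, on chromosome 4, read 12.56 and 12.70 in OPCL61, against 13.18 and 13.19 in NSCL61, a difference of -0.56 ± 0.11 (adjusted p = 0.00421), and Tkt, transketolase, on chromosome 14, read 13.08 and 12.97 in OPCL61, against 12.13 and 12.08 in NSCL61, a difference of 0.92 ± 0.13 (adjusted p = 0.00101). The directions of these 3 genes were those of their chromosomes, but the fall of Cbr1 was well beyond the chromosome 16 median of -0.344. The part of the chromosome shifts in this list was not tested. Gstp1, on chromosome 19, had the largest fall of the list. The 11 became 4 without NSCL61 replicate 1, and the 4 higher became 1 without NSCL61 replicate 2.

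DNA replication and G1/S genes were higher for 6 of 27 and lower for 0, beside 13.2% and 13.4% of all tested genes. Their median was 0.23, and at an unadjusted p under 0.05 in limma 9 were higher and 3 lower. Rfc3, a clamp loader subunit, read 9.84 and 9.79 in OPCL61, against 8.63 and 8.79 in NSCL61, a difference of 1.11 ± 0.12 (adjusted p = 2.32e-04), and Mcm7, a subunit of the replicative helicase, differed by 0.59 ± 0.12 (adjusted p = 0.00503). The 6 became 2 without NSCL61 replicate 1 and 4 without NSCL61 replicate 2 or OPCL61 replicate 2. Mitosis and G2/M genes were higher for 2 of 27 (7.41%) and lower for 0. At an unadjusted p under 0.05 in limma, 3 of these were higher and 1 lower. Of 8 genes for inhibitors of cyclin-dependent kinases, 3 were higher and 1 lower. Cdkn1b, the inhibitor p27, read 9.09 and 8.73 in OPCL61, against 7.93 and 7.98 in NSCL61, a difference of 0.96 ± 0.17 (adjusted p = 0.00305), and Cdkn3, a kinase-associated phosphatase on chromosome 14, read 8.95 and 9.71 in OPCL61, against 7.66 and 7.97 in NSCL61, a difference of 1.51 ± 0.28 (adjusted p = 0.00397). Cdkn2b, on chromosome 4, was the 1 lower gene, at a size well beyond that chromosome's median. The 3 higher inhibitors became 2 without NSCL61 replicate 1, NSCL61 replicate 2 or OPCL61 replicate 2, and the 2 mitotic genes became 0 without NSCL61 replicate 1 and 1 without each other line array. Without OPCL61 replicate 2, 1 replication gene and 1 mitotic gene were lower.

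Output genes of the Ras-MAPK pathway, the cascade downstream of Ras, gave 3 higher (12%) and 4 lower (16%) of 25. All tested genes gave 13.2% and 13.4%, so these counts were near the share of all genes. Ier3, an immediate early response gene, read 6.66 and 7.29 in OPCL61, against 12.85 and 12.45 in NSCL61, a difference of -5.68 ± 0.36 (adjusted p = 6.12e-06). Epha2, an ephrin receptor and Ras target on chromosome 4, read 7.53 and 7.88 in OPCL61, against 9.51 and 9.40 in NSCL61, a difference of -1.74 ± 0.25 (adjusted p = 9.39e-04). Dusp1, a phosphatase that switches off MAP kinases, read 8.99 and 8.66 in OPCL61, against 10.85 and 10.80 in NSCL61 (adjusted p = 0.00194). The 3 higher genes became 0 without NSCL61 replicate 1, 1 without NSCL61 replicate 2 and 2 without OPCL61 replicate 1.

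Of 51 growth factors and receptors, 10 were higher (19.6%) and 6 lower (11.8%), beside 13.2% and 13.4% of all tested genes. Fgf15, a fibroblast growth factor of the embryonic brain, read 5.89 and 6.47 in OPCL61, against 4.06 and 4.17 in NSCL61, a difference of 2.06 ± 0.21 (adjusted p = 1.62e-04), while Igf2r, the receptor that clears insulin-like growth factor 2, read 9.16 and 8.46 in OPCL61, against 10.41 and 10.16 in NSCL61, a difference of -1.47 ± 0.20 (adjusted p = 7.37e-04). Larger changes were those of Igfbp2, Ptn, Ereg and Fgf5, described above. The counts fell to 3 higher and 3 lower without NSCL61 replicate 2. Cytokines and chemokines were higher for 6 of 24 and lower for 2. Ccl2, a monocyte chemokine, read 11.74 and 11.87 in OPCL61, against 8.95 and 8.15 in NSCL61, a difference of 3.25 ± 0.38 (adjusted p = 3.18e-04), beside a parental difference of -4.24 ± 0.38 (adjusted p = 1.39e-05). Lif, an interleukin-6 family cytokine, read 9.68 and 8.04 in OPCL61, against 5.58 and 5.78 in NSCL61, a difference of 3.18 ± 0.48 (adjusted p = 0.00141), whereas Il11, of the same family, read 6.24 and 5.98 in OPCL61, against 8.14 and 8.19 in NSCL61, a difference of -2.05 ± 0.30 (adjusted p = 0.00106). The 6 became 3 without NSCL61 replicate 2.

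Interferon response and MHC class I genes were lower for 6 of 18 and higher for 2, beside 13.4% and 13.2% of all tested genes. Ifit3, an interferon-induced antiviral protein, read 5.14 and 5.18 in OPCL61, against 8.16 and 7.66 in NSCL61, a difference of -2.75 ± 0.17 (adjusted p = 4.25e-06). Bst2, the virus-tethering protein tetherin, read 4.88 and 5.01 in OPCL61, against 7.70 and 7.65 in NSCL61, a difference of -2.73 ± 0.21 (adjusted p = 2.14e-05). Ifih1, the RNA sensor MDA5, read 5.30 and 5.21 in OPCL61, against 7.48 and 7.41 in NSCL61, a difference of -2.19 ± 0.34 (adjusted p = 0.00163). All 3 were near or under the background limit in OPCL61. The 6 became 3 without NSCL61 replicate 1 and the 2 became 0 without NSCL61 replicate 1 or OPCL61 replicate 1. They also became 1 without NSCL61 replicate 2 or OPCL61 replicate 2.

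In the BMP and TGF-beta pathway, 7 of 33 genes were higher and 7 lower, beside 13.2% and 13.4% of all tested genes. Id1, an inhibitor of helix-loop-helix factors and a BMP target, read 6.36 and 6.28 in OPCL61, against 10.57 and 10.58 in NSCL61, a difference of -4.26 ± 0.32 (adjusted p = 1.87e-05). Bmp4, a ligand, read 5.75 and 5.19 in OPCL61, against 6.70 and 6.88 in NSCL61, a difference of -1.32 ± 0.18 (adjusted p = 7.83e-04), against the direction of its chromosome 14. The receptors Bmpr1a, on the same chromosome, and Tgfbr2 were higher, by 1.29 ± 0.16 (adjusted p = 4.76e-04) and 1.26 ± 0.20 (adjusted p = 0.00188). In the Notch and Hedgehog pathways 6 of 25 were higher and 2 lower. Gli2, a Hedgehog transcription factor, read 7.73 and 7.45 in OPCL61, against 5.30 and 5.33 in NSCL61, a difference of 2.28 ± 0.28 (adjusted p = 4.51e-04), and a second probe set differed by 0.49. Notch2, a Notch receptor, fell by 1.20 (adjusted p = 5.68e-04), and Hhip, an inhibitor of Hedgehog ligands, fell by 0.99 (adjusted p = 0.00274). In the Wnt pathway 3 of 39 were higher and 4 lower, among them Sp5, a Wnt target factor, with 4.58 and 4.72 in OPCL61, against 6.57 and 7.27 in NSCL61, a difference of -2.27 ± 0.20 (adjusted p = 5.39e-05). Averaging probe sets gave differences of 0.69 for Bmpr1a, 0.65 for Tgfbr2, 1.39 for Gli2 and -0.68 for Notch2. The higher counts without NSCL61 replicate 1 were 2 for BMP and TGF-beta, 2 for Notch and Hedgehog and 0 for Wnt. Without NSCL61 replicate 2 they were 3, 2 and 0, and without OPCL61 replicate 1 they were 3, 3 and 1.

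Regional transcription factors gave 7 higher and 6 lower of 30, and these counts varied between 7 and 8 higher and between 5 and 6 lower with single line arrays left out. Zic1, a zinc finger factor of dorsal and septal neural tissue, read 5.86 and 6.25 in OPCL61, against 10.05 and 10.12 in NSCL61, a difference of -4.03 ± 0.21 (adjusted p = 1.83e-06). Lhx8, a factor of ventral cholinergic neurons, read 4.30 and 4.24 in OPCL61, against 6.57 and 6.86 in NSCL61, a difference of -2.44 ± 0.14 (adjusted p = 2.55e-06). Irx5, an Iroquois homeobox factor, read 6.83 and 6.88 in OPCL61, against 5.01 and 4.54 in NSCL61, a difference of 2.08 ± 0.21 (adjusted p = 1.26e-04). Hox genes were higher for 5 of 11 (45.5%) and lower for 0. The regional factors gave 23.3% and 20%, and all tested genes 13.2% and 13.4%. At an unadjusted p under 0.05 in limma, 6 Hox genes were higher and 3 lower. On the array, 24 of 32 Hox genes had means under the median in each line. Hoxa7, a trunk Hox gene, read 8.14 and 8.85 in OPCL61, against 6.26 and 6.35 in NSCL61, a difference of 2.19 ± 0.24 (adjusted p = 2.03e-04). The other 4 differed by less on the probe sets used, but a dimmer probe set of Hoxa5 differed by 4.19 and one of Hoxa9 by 4.07, and with probe sets averaged the differences were 2.29 for Hoxa5 and 2.25 for Hoxa9. Of 13 Sox genes, 0 passed in either direction in limma, 2 were higher and 0 lower at an unadjusted p under 0.05, and 1 was higher without OPCL61 replicate 1. Sox11, an embryonic neural member, read 10.34 and 10.15 in OPCL61, against 9.38 and 9.77 in NSCL61, a difference of 0.67 ± 0.29 (adjusted p = 0.119). On the probe sets used, the call was lost for Hoxa5 at adjusted p = 0.0874 without OPCL61 replicate 2, 0.153 without NSCL61 replicate 1 and 0.0574 without NSCL61 replicate 2, and for Hoxa9 at adjusted p = 0.105 without OPCL61 replicate 2, 0.0918 without NSCL61 replicate 1 and 0.108 without NSCL61 replicate 2. The 5 Hox genes became 1 without NSCL61 replicate 1 and 2 without NSCL61 replicate 2 or OPCL61 replicate 2.

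Matrix and adhesion genes moved in both directions, as did all tested genes, 13.2% of them higher and 13.4% lower. The shares were 8.33% and 25% for collagens and 20% and 10% for integrins and laminins. Nearer to those of all genes were proteoglycans and other matrix proteins, at 12.8% and 15.4%, and cadherins and protocadherins, at 12.5% and 16.7%. Collagens were higher for 2 of 24 and lower for 6, and proteoglycans and other matrix proteins for 5 and 6 of 39. Ncan, the brain proteoglycan neurocan, read 8.15 and 7.99 in OPCL61, against 5.33 and 4.88 in NSCL61, a difference of 2.96 ± 0.22 (adjusted p = 2.20e-05), while Thbs2, thrombospondin-2, read 7.05 and 5.60 in OPCL61, against 10.90 and 10.52 in NSCL61, a difference of -4.38 ± 0.50 (adjusted p = 2.65e-04). Integrins and laminins were higher for 4 of 20 and lower for 2, and Itgb8, the beta-8 chain, read 7.58 and 7.05 in OPCL61, against 4.08 and 4.76 in NSCL61, a difference of 2.90 ± 0.31 (adjusted p = 1.74e-04). Cadherins and protocadherins were higher for 3 of 24 and lower for 4. Cdh1, E-cadherin, read 3.37 and 3.12 in OPCL61, against 6.82 and 6.49 in NSCL61, a difference of -3.41 ± 0.18 (adjusted p = 1.87e-06), and Fat4, a giant protocadherin, read 3.33 and 3.67 in OPCL61, against 7.22 and 7.42 in NSCL61, a difference of -3.82 ± 0.31 (adjusted p = 3.56e-05). The parents read 2.78 and 2.94 in OPC and 3.10 and 3.003 in NSC for Cdh1, so NSCL61 was the group with signal. Without NSCL61 replicate 2 the collagens were 0 higher and 2 lower, and the cadherins 0 higher and 3 lower. Without NSCL61 replicate 1 the collagens were 0 higher and 3 lower, and the cadherins 0 higher and 3 lower. Without OPCL61 replicate 1 the collagens were 0 higher and 4 lower, and without OPCL61 replicate 2 they were 2 higher and 3 lower. The 5 higher matrix proteins became 8 without OPCL61 replicate 2. The integrins became 2 higher and 1 lower without NSCL61 replicate 1, NSCL61 replicate 2 or OPCL61 replicate 2, and the higher cadherins became 1 without OPCL61 replicate 1.

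Intermediate filament genes were lower for 4 of 17 and higher for 2, beside 13.4% and 13.2% of all tested genes. The simple epithelial keratins were among the lower ones: Krt18 read 3.33 and 3.54 in OPCL61, against 6.56 and 6.61 in NSCL61, a difference of -3.16 ± 0.11 (adjusted p = 1.35e-07), and Krt19 read 5.60 and 4.98 in OPCL61, against 8.93 and 8.76 in NSCL61, a difference of -3.55 ± 0.20 (adjusted p = 3.09e-06). Krt6a, given above, went the other way and was not among the 17. Mesenchymal transition genes gave 3 higher and 3 lower of 22, each 13.6%, which was near the share of all tested genes. Snai2, the zinc finger repressor Slug, on chromosome 16, read 5.68 and 6.71 in OPCL61, against 8.996 and 9.07 in NSCL61, a difference of -2.84 ± 0.29 (adjusted p = 1.48e-04), and Twist1, a helix-loop-helix factor, read 6.49 and 6.77 in OPCL61, against 8.16 and 8.08 in NSCL61, a difference of -1.49 ± 0.21 (adjusted p = 8.15e-04). Prrx1, a mesenchymal homeobox factor, read 10.05 and 10.11 in OPCL61, against 8.68 and 8.71 in NSCL61, a difference of 1.39 ± 0.19 (adjusted p = 7.36e-04). Of 32 proteases and inhibitors, 8 were higher and 4 lower. The falls were led by Serpinh1, a collagen chaperone, with 5.76 and 5.42 in OPCL61, against 10.22 and 10.25 in NSCL61, a difference of -4.64 ± 0.17 (adjusted p = 1.52e-07). Timp4, an inhibitor of metalloproteinases, read 6.82 and 6.89 in OPCL61, against 5.04 and 4.99 in NSCL61, a difference of 1.84 ± 0.11 (adjusted p = 4.12e-06). Averaging probe sets gave differences of 2.80 for Timp4 and 0.87 for Prrx1. The mesenchymal counts became 5 higher and 5 lower without OPCL61 replicate 2. The 8 proteases became 3 without NSCL61 replicate 1 and 4 without NSCL61 replicate 2 or OPCL61 replicate 1.

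Axon guidance genes were higher for 6 of 43 (14%) and lower for 4 (9.3%), beside 13.2% and 13.4% of all tested genes. Sema3e, a secreted semaphorin, read 7.74 and 6.83 in OPCL61, against 10.06 and 10.23 in NSCL61, a difference of -2.86 ± 0.25 (adjusted p = 6.25e-05), and Robo1, a Slit receptor on chromosome 16, read 8.60 and 6.84 in OPCL61, against 4.58 and 4.40 in NSCL61, a difference of 3.23 ± 0.54 (adjusted p = 0.00235). Of 31 glutamate receptor and ion channel genes, 5 were higher and 2 lower, and Kcnk1, a background potassium channel, read 6.69 and 7.40 in OPCL61, against 3.78 and 3.78 in NSCL61, a difference of 3.26 ± 0.21 (adjusted p = 6.86e-06). Of 12 fatty acid and retinoid binding protein genes, 2 were higher and 1 lower. Fabp3, the heart fatty acid binding protein on chromosome 4, read 4.93 and 4.19 in OPCL61, against 8.96 and 8.71 in NSCL61, a difference of -4.27 ± 0.25 (adjusted p = 3.94e-06), opposite to Fabp7. Rbp4, the retinol carrier, read 7.34 and 5.68 in OPCL61, against 4.25 and 3.92 in NSCL61, a difference of 2.43 ± 0.43 (adjusted p = 0.00305). Averaging probe sets gave a difference of -2.30 for Fabp3, and without OPCL61 replicate 1 that of Rbp4 was 1.60. Imprinted genes were lower for 7 of 28 and higher for 4. Beside Ndn and Grb10, Slc38a4, an amino acid transporter, read 3.84 and 4.01 in OPCL61, against 7.49 and 7.25 in NSCL61, a difference of -3.45 ± 0.42 (adjusted p = 4.06e-04), and Phlda2, a placental growth regulator, read 7.02 and 7.47 in OPCL61, against 9.50 and 9.10 in NSCL61, a difference of -2.05 ± 0.22 (adjusted p = 1.92e-04). Nnat, neuronatin, was higher, with 8.14 and 7.34 in OPCL61, against 4.73 and 4.39 in NSCL61, a difference of 3.18 ± 0.51 (adjusted p = 0.00194). The 6 guidance genes became 3 without NSCL61 replicate 1 and 2 without NSCL61 replicate 2, and the 4 lower ones became 2 without NSCL61 replicate 1. The channel genes became 3 higher and 1 lower without NSCL61 replicate 1, and 1 was lower without NSCL61 replicate 2 or OPCL61 replicate 2. The 2 higher binding proteins became 4 without OPCL61 replicate 2, and the 4 higher imprinted genes became 2 without NSCL61 replicate 1.

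**Figure D4:**
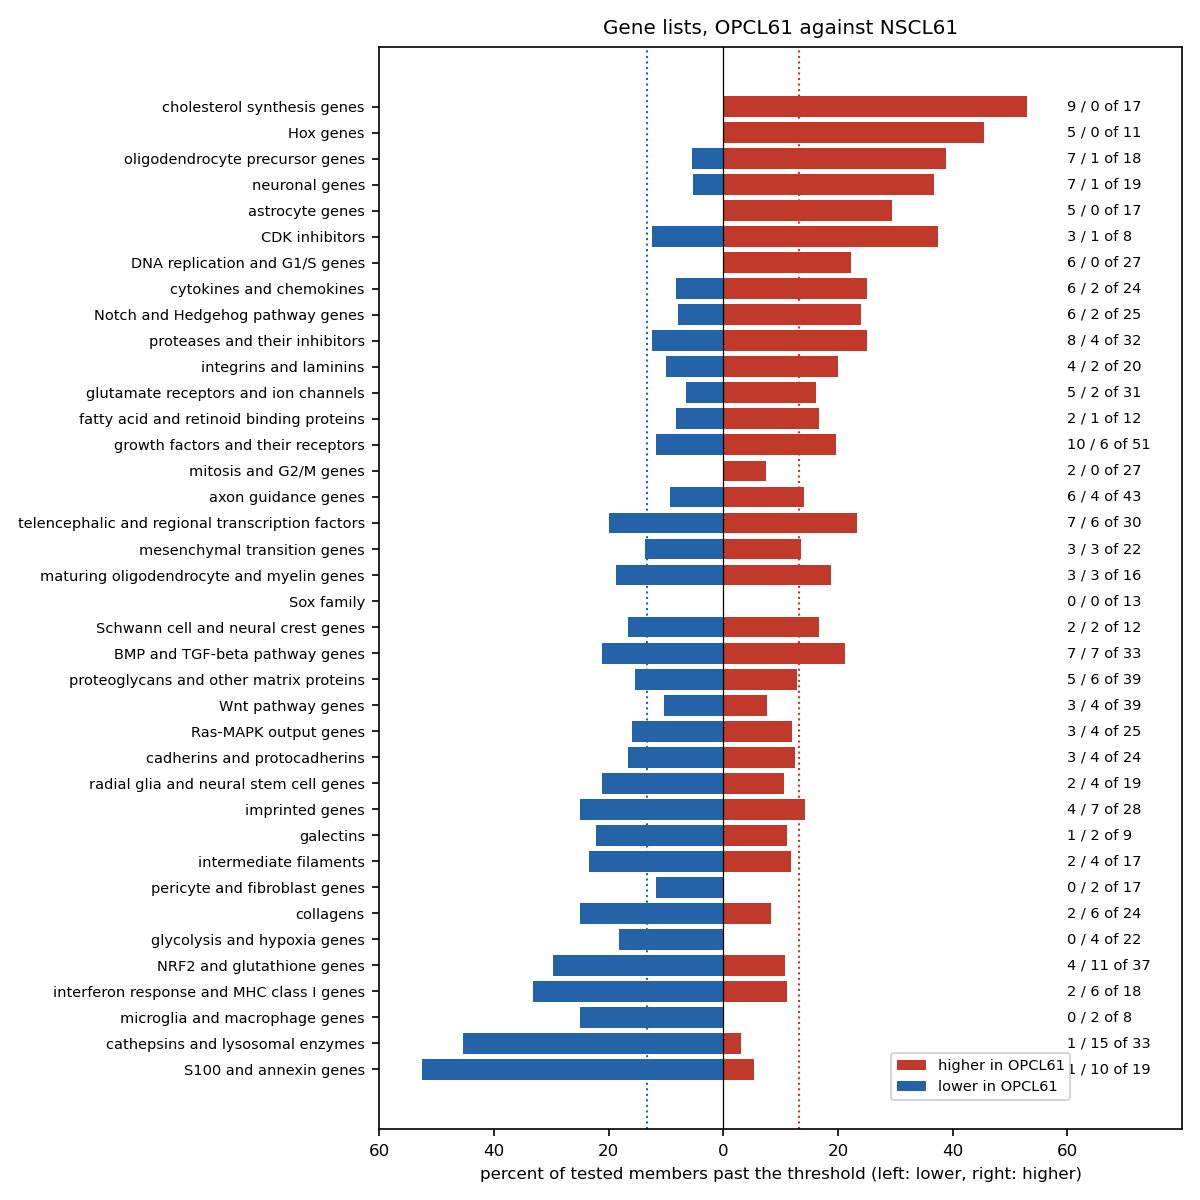
Percent of the tested members of each gene list that were higher (right, red) or lower (left, blue) in OPCL61 than in NSCL61 at an adjusted p under 0.05, with dotted lines at the percentages for all tested genes, 13.2% higher and 13.4% lower. The numbers at the right give members higher, lower and tested; cholesterol synthesis, Hox and oligodendrocyte precursor genes stand at the top and S100, annexin and lysosomal genes at the bottom.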

How the data were processed

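Log2 signals per probe set were used as the authors deposited them. How they were summarised and normalised is not given in the sources used here. Per the labels' protocols, total RNA was labelled with biotin for 1-colour Affymetrix arrays. Of 45101 probe sets, 34958 had 1 gene symbol and 932 had several, by the platform table. The number of arrays limits the precision. Of the 18193 genes, those with a group mean above 5.183 were tested. limma 3.58.1 in R 4.3.3 fitted 6 group means to all 12 arrays (6 residual and 9.303 total degrees of freedom), and 2-sided p-values were adjusted over 12787 genes by Benjamini-Hochberg, threshold 0.05. Values after ± are standard errors for differences and SD for group means. Named were the 4 given genes, the 15 largest rises and 15 largest falls without array overlap (provisional symbols left out), up to 4 members of each list by p, the 8 largest differences of differences each way, and up to 10 on-off genes each way. Genes, lists and rules were chosen with earlier results of these data known. The text names a selection of these. Chromosomes and gene order came from RefSeq GRCm38.p6. The procedure was tested on simulated data. Deviations of same-numbered arrays from their group means correlated at 0.0185 between the lines and 0.00637 between the parents, so the numbers were not taken as pairs. Expression of Hras and Trp53 was not analysed here. Figures used matplotlib 3.10.9 and pandas 2.3.3 under Python 3.11.15.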

Additional observations from a re-analysis of the deposited data

Results flagged for a closer look

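The following genes had a line difference, OPCL61 minus NSCL61, that differed from the parental difference, OPC minus NSC, by limma's test of the difference itself, as 37.8% of all tested genes did. Rhox5 had a difference of differences of 4.38 ± 0.17 (adjusted p = 2.68e-07) and Fabp7 of -2.61 ± 0.69 (adjusted p = 0.0157); the Fabp7 call was lost without NSCL61 replicate 1 (adjusted p = 0.0588). The value was 10.63 ± 1.42 (adjusted p = 3.87e-04) for Cavin2, where OPCL61 replicate 1 was far above replicate 2 and both NSC arrays were high. It was 10.18 ± 0.24 (adjusted p = 2.92e-08) for Anxa1, 9.47 ± 0.19 (adjusted p = 1.36e-08) for S100a6 and 9.16 ± 0.63 (adjusted p = 6.86e-06) for Postn, all high in NSC and at background in OPC. It was -10.32 ± 0.68 (adjusted p = 5.25e-06) for Nrcam and -8.50 ± 0.40 (adjusted p = 8.33e-07) for Pcdh8, which were lower in OPCL61 than in NSCL61 and higher in OPC than in NSC. It was -9.03 ± 0.30 (adjusted p = 1.40e-07) for Lrrn1 and -8.28 ± 0.18 (adjusted p = 1.36e-08) for Gpm6a, which were high in OPC and under the median in both lines.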

How the results depend on the processing

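Changed settings were quantile normalisation, median centring, 3 filters, averaged probe sets, array weights, a trended robust prior, a fit of the compared arrays or of the HRasL61 lines alone, a replicate block and each array left out. With the replicate block 3360 genes differed between the lines, 4810 in the difference of differences and 6471 between the parents, and the array numbers did not pair the samples. Requiring at least a 2-fold difference gave 1315, 3060 and 3126. Leaving out 1 array gave 1790 (without NSCL61 replicate 1) to 3485 genes between the lines, with 1864 without NSCL61 replicate 2, then 3647 to 4766 for the difference of differences and 5192 to 6795 for the parents. Chromosome medians with no filter were 0.285 for chromosome 14, -0.228 for chromosome 4 and -0.201 for chromosome 16. With the filter at the 75th percentile those of 14 and 4 were 0.92 and -0.561, and with the mean of probe sets 0.648 and -0.366. Leaving out 1 array gave 0.708 to 0.791 for chromosome 14, -0.458 to -0.382 for chromosome 4 and -0.433 to -0.277 for chromosome 16. Leaving out the genes of these chromosomes, a setting chosen after seeing the data, gave 2419, 4028 and 5764 genes. The direction turned only for values that had not passed. Cspg4 was 0.0007997 under quantile normalisation, 0.2744 with the mean of probe sets and -0.03233 to 0.02727 with 1 array left out. Col5a2 was 0.02115 with the mean of probe sets and -0.3249 to 0.007374 with 1 array left out. With 1 array left out Ugt8a ranged from -0.8389 to 0.4532, Cdkn2a from -0.2652 to 0.4105 and the Lgals3 line minus parental difference from -0.6481 to 0.2494. The Ctsz line minus parental difference was 0.003523 with the mean of probe sets. Of 204 line differences of single genes, 40 lost the call under at least 1 setting and 5 gained it. The cause was not tested. Where an array is left out, the lone array is assumed to vary like the other groups.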
